A study of Homo sapiens with 4 samples.

Results

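The aryl hydrocarbon receptor (AHR), its DNA-binding partners ARNT and ARNT2, the co-chaperone PTGES3, the repressors AHRR and TIPARP and the cytochrome P450 genes CYP1A1, CYP1A2 and CYP1B1 were followed in poly-A RNA of HCT116 cells. These 9 genes were taken by name from the deposited table of 34826 genes, and all 9 had a row. HCT116 is a human colorectal cancer line, and the cells used here, HCT116-Ki-67-mAC-AID, carry a degron tag on Ki-67 in every sample. There were 2 IAA samples, given the auxin indole acetic acid (IAA, 0.5 mM) over 24 h, which targets the tagged protein for degradation, and 2 control samples of the same tagged cells left untreated. The cells of 3 dishes, grown 2 days, made up a sample, and the labels call each sample a biological replicate. Whether the line is 1 clone, and whether the samples were grown on separate days, is not said in the labels, so p-values measure the spread between these samples, which may be technical. The question was which members differed in mRNA level between the IAA and control samples. IAA is an indole, no treated cells without the tag were among the samples, and exposure to IAA and loss of Ki-67 cannot be told apart.

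AHR is a transcription factor that waits in the cytosol in a complex with HSP90 and PTGES3 (also called p23). A bound ligand sends it to the nucleus, where it pairs with ARNT, binds xenobiotic response elements and raises the transcription of the CYP1 enzymes, which oxidise many of its ligands. AHRR and TIPARP are induced along the same route and restrain it, AHRR as a repressor that also pairs with ARNT, and TIPARP as an ADP-ribosyltransferase that modifies AHR. In the intestine AHR is known as a sensor of dietary and microbial compounds, with indoles and other tryptophan products among its ligands.

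The stretches around annotated starts of CYP1A1, AHRR, TIPARP and AHR are shown because the response element is the sequence known to link the targets and feedback genes to the receptor. RefSeq promoters (GRCh38.p14, 250 bases before to 50 after each start) were matched by symbol for 7 of the 9 members, all but ARNT2 and CYP1B1. Capitals mark the core of the element, GCGTG, on either strand, so that CACGC is the same core read on the opposite strand. The core lies within the longer form TNGCGTG, and the same letters also occur in response elements of the hypoxia-inducible factors.

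CYP1A1 (chr15:74725479-74725778, minus strand): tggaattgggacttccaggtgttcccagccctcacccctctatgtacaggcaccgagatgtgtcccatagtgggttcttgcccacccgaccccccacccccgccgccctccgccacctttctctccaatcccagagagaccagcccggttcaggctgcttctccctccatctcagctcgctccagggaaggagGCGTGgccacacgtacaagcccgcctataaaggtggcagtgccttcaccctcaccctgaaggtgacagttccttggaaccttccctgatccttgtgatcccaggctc
AHRR start 1 (chr5:321464-321763, plus strand): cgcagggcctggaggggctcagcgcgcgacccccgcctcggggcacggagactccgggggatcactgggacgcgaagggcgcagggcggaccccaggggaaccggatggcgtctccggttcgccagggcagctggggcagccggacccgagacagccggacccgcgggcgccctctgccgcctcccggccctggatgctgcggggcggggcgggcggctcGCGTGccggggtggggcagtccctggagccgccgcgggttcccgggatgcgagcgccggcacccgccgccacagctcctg
AHRR start 2 (chr5:322360-322659, plus strand): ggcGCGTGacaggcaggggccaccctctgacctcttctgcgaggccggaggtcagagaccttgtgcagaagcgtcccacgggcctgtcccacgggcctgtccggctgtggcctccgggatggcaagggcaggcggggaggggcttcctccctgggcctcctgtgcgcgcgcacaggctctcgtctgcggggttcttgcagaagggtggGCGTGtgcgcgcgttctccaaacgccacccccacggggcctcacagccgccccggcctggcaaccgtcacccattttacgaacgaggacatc
TIPARP start 1 (chr3:156674340-156674639, plus strand): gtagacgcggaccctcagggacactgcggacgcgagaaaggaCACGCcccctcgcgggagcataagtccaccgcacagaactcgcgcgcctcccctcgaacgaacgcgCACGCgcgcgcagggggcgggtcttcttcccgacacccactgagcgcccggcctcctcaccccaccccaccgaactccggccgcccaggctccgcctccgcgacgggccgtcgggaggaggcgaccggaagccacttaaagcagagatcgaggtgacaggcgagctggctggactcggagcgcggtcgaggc
AHR (chr7:17298402-17298701, plus strand): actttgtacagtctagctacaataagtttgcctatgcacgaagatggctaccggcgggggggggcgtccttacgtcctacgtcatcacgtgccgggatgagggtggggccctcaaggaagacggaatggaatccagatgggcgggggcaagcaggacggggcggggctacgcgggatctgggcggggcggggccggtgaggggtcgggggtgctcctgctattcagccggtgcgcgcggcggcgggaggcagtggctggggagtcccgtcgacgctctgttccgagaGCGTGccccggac

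The core occurred in 5 of the 7 matched genes and in 6 of their 10 promoters, against 11077 of all 27305 genes (40.6%) and 12832 of all 35116 promoters of the same length (36.5%). It was present at CYP1A1, at both starts of AHRR, at the first of 3 starts of TIPARP, at AHR and at PTGES3, and no match lay in the windows of ARNT and CYP1A2. The longer form was found once, at the first AHRR start, against 5.51% of all promoters. A match is a description of these letters and not evidence of a bound site, and the best known elements of CYP1A1 lie further upstream than this window reaches.

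**Figure D1:**
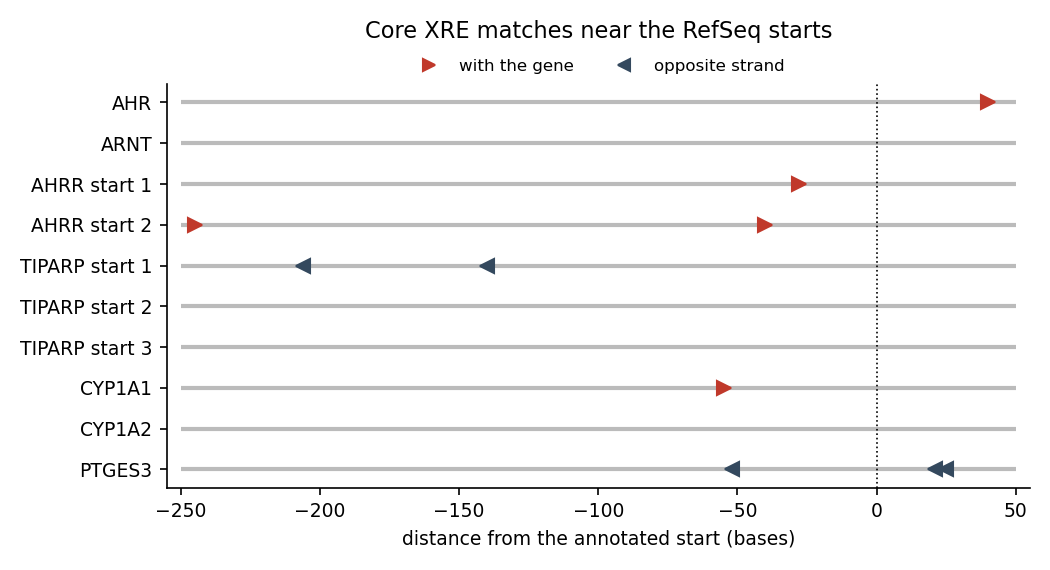
Positions of the core response element in the 10 RefSeq promoters of 7 members, drawn by distance in bases from the annotated start (dotted line); right-pointing marks lie on the strand of the gene and left-pointing marks on the opposite strand. PTGES3 has 3 matches, AHRR start 2 and TIPARP start 1 have 2 each, and TIPARP starts 2 and 3, ARNT and CYP1A2 have none.

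The recovered libraries held between 38733981 and 49448043 reads. IAA replicate 1 stood apart, with 26245 genes above 0 against 27107 to 28153 in the other 3 and with 1787 genes at a single read against 2776 to 2931. Per gene, the chi-square of the reads was 15.8 for the pair of IAA libraries, against 8.12 for the pair of controls. Of the 4 pairs across groups, IAA replicate 2 with control replicate 2 was the closest of all 6 pairs at 5.75, and the other 3 lay between 11.9 and 15.0, so the libraries did not group by treatment on this measure. MKI67, the gene of the tagged protein, had 174 and 149 TPM in IAA, against 198 and 151 TPM in control, overlapping groups (limma adjusted p = 0.999). The degron acts on the protein, so this mRNA level does not show whether Ki-67 was lost. Of 7 colorectal epithelial markers 6 were present at 1 TPM or more, VIL1 being the exception, with a summed level of 3739 and 4124 TPM in IAA, against 3872 and 3877 TPM in control. Of 12 markers of blood, fibroblast, endothelial, hepatocyte and squamous cells, 2 reached that level (COL1A1 and KRT13), none was at 0 in all libraries, and the sums were 24.3 and 17.5 TPM in IAA, against 18.6 and 17.7 TPM in control. KRT13 had 6.73 TPM in IAA replicate 1 and between 2.19 and 2.36 TPM in the other 3 libraries. The part of such cells in the results was not tested. In bulk RNA, fewer cells of a type and less RNA per cell cannot be told apart.

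No member passed the threshold, but the feedback genes and CYP1A1 and CYP1B1 lay higher in both IAA samples. The largest differences were in AHRR (ratio of mean TPM 1.63), CYP1A1 (1.69) and TIPARP (1.40), with smaller ones in CYP1B1 (1.28), AHR (1.19) and PTGES3 (1.06). The partners ARNT and ARNT2 overlapped between the groups, and CYP1A2 was at the limit of detection. The test was limma with a trend on log2(TPM + 1) across the 17896 genes that reached 1 TPM in 2 libraries or more, adjusted by Benjamini-Hochberg over all of them with a threshold of 0.05. The 8 members other than CYP1A2 entered it, each with at least 1 TPM in all 4 libraries, so that none passed the filter through a single group.

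Of the 8 tested members, 0 were called higher and 0 lower, where limma called 0% of all genes in either direction. At an unadjusted p under 0.05, 3 members were higher in IAA, AHR, AHRR and TIPARP, against 1.54% of all genes (275). For 6 of 8 members the lower IAA library exceeded the higher control, against 11.8% of all genes tested, and for 0 members the higher IAA library was under the lower control, against 17.7%. The median log2 fold change of the 8 was 0.25, against -0.02 over all genes tested. The members' median was 0.162 at a minimum of 5 TPM in 2 libraries, where CYP1A1 and CYP1B1 drop out. AHRR passed that minimum through its IAA libraries alone (6.21 and 6.22 TPM, against 4.38 and 3.25 TPM in control). That filter is therefore no independent check of the median. The members' median was 0.169 with a pseudocount of 5 TPM. Without IAA replicate 1 it was 0.26, with 0.60 for AHRR, 0.37 for TIPARP, 0.69 for CYP1A1, 0.35 for CYP1B1, 0.165 for AHR, 0.09 for PTGES3, -0.02 for ARNT2 and -0.11 for ARNT. The members act in a single pathway and were chosen with earlier results of these data known, so these counts describe the list and carry no test.

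**Figure D2:**
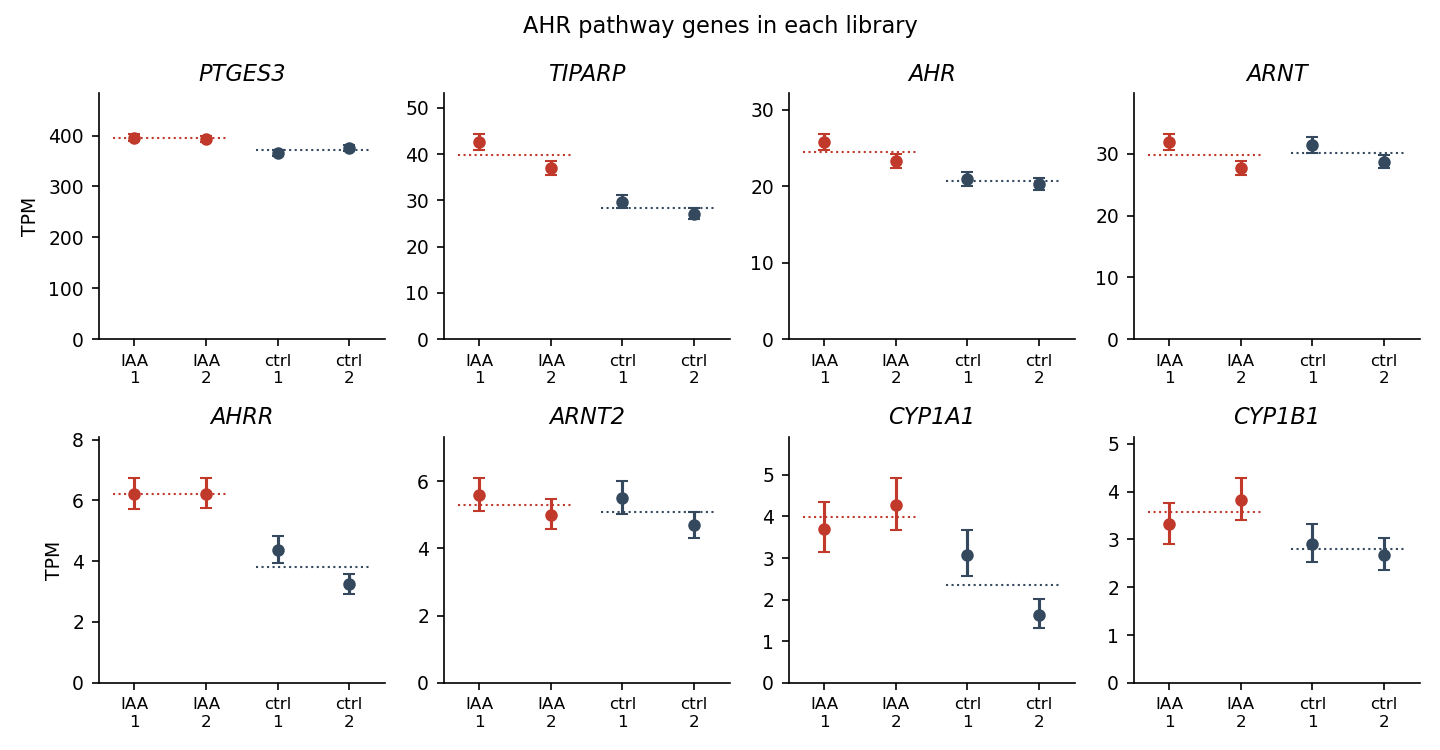
TPM of the 8 detected members in IAA replicates 1 and 2 (red) and control replicates 1 and 2 (dark), with 95% exact Poisson intervals of the reads as bars and group means as dotted lines; each panel has its own axis, starting at 0. Both IAA points lie above both control points for PTGES3, TIPARP, AHR, AHRR, CYP1A1 and CYP1B1, and the groups interleave for ARNT and ARNT2.

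The receptor itself lay a little higher in both IAA samples, without passing the test. AHR (ENSG00000106546.13, GRCh38 chromosome 7, 16916359 to 17346152, forward strand) had 25.7 and 23.3 TPM in IAA replicates 1 and 2, against 21.0 and 20.3 TPM in control replicates 1 and 2. The groups did not overlap, and IAA replicate 1 was the highest of the 4. Its log2 fold change of 0.23 had a 95% interval from 0.00 to 0.47 (SE 0.10, limma adjusted p = 0.999). In the annotation 29.4% of the AHR exon bases are shared with AC019117.2, a gene model on the same strand that was not analysed here, and how reads in shared exons were counted is not stated in the sources used. Another 270 exon bases lie opposite AC073332.1, an antisense transcript at 1.13 and 1.05 TPM in IAA, against 0.884 and 0.668 TPM in control.

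The partners of AHR in DNA binding overlapped between the groups. ARNT (ENSG00000143437.20, chromosome 1, 150809705 to 150876768, reverse), the usual partner, had 31.8 and 27.7 TPM in IAA, against 31.4 and 28.6 TPM in control. ARNT2 (ENSG00000172379.20, chromosome 15, 80404350 to 80597937, forward), a relative with a main role in the nervous system, had 5.59 and 5.00 TPM in IAA, against 5.50 and 4.69 TPM in control. In both genes replicate 1 was above replicate 2 in each group, and the groups interleaved. The log2 fold changes were -0.01 for ARNT, with an interval from -0.27 to 0.24, and 0.05 for ARNT2, with an interval from -0.31 to 0.41. The values are compatible with differences of up to about these sizes. The adjusted test left larger ones uncalled, such as 0.59 for AHRR. The sign of the ARNT value turned under another scaling (0.0038 with median-of-ratios factors), and that of ARNT2 without IAA replicate 1 (-0.02).

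PTGES3, the co-chaperone of the cytosolic complex (ENSG00000110958.15, chromosome 12, 56663341 to 56688408, reverse), was by far the most abundant member. It had 396 and 394 TPM in IAA, against 366 and 376 TPM in control, on 14590 to 19817 reads a library. The groups did not overlap, but the difference was small, with a log2 fold change of 0.09 (SE 0.07, limma adjusted p = 0.999). Its processed pseudogene PTGES3P1 matches it over 437 bases at 98.4% identity, so that reads can be split between them. That pseudogene had 10.98 and 3.07 TPM in IAA, against 3.53 and 5.61 TPM in control, with overlapping groups.

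TIPARP, the ADP-ribosyltransferase that restrains the receptor, had the smallest p of the members. TIPARP (ENSG00000163659.12, chromosome 3, 156673235 to 156706770, forward) had 42.6 and 36.9 TPM in IAA, against 29.7 and 27.2 TPM in control, on 1760 to 2553 reads a library. The groups did not overlap, nor did the counting intervals, whose lower end in IAA was 35.4 TPM and whose upper end in control was 31.2 TPM. The log2 fold change was 0.47 (SE 0.10), and its interval ran from 0.21 to 0.72. TIPARP ranked 100 of 17896 genes by p, with an unadjusted limma p of 0.00446 and an adjusted p of 0.788. The fold change was 0.37 without IAA replicate 1 and 0.57 without IAA replicate 2, in fits that assume the lone IAA library to vary like the controls. TIPARP-AS1, which starts on the opposite strand and shares 37 exon bases with it, had 4.90 and 5.78 TPM in IAA, against 3.74 and 5.81 TPM in control, overlapping groups.

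AHRR, the repressor that shares ARNT with the receptor, had a tight pair of IAA values above a wide pair of controls. AHRR (ENSG00000063438.16, chromosome 5, 304176 to 438291, forward) had 6.21 and 6.22 TPM in IAA, against 4.38 and 3.25 TPM in control. The control replicates differed from each other by more than their counting intervals, which ended at 3.95 TPM on the lower side of replicate 1 and 3.59 TPM on the upper side of replicate 2. Its log2 fold change of 0.59 (SE 0.17) had an interval from 0.19 to 1.00 and ranked 232 of 17896 by p (limma adjusted p = 0.902). It was 0.35 with a pseudocount of 5 TPM. AHRR shares 244 exon bases, 3.18% of its length, with PDCD6, which was far more abundant, at 24.5 and 27.3 TPM in IAA, against 26.8 and 26.2 TPM in control, and overlapped between the groups.

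Limma voom on the recovered reads, which weights each value by the spread expected at its read count, gave AHRR a log2 fold change of 0.75 (SE 0.13). For TIPARP it gave 0.49 (SE 0.09). Neither passed there, with an adjusted p of 0.134 for AHRR and 0.235 for TIPARP. When limma was fitted to protein-coding genes alone, AHRR, TIPARP and CYP1A1 were called (limma adjusted p = 0.0104, 0.00754 and 0.0226). Of all 12456 genes in that fit, 12 were called higher and 25 lower. That fit estimated an infinite prior, so that each gene took the spread of the trend and not its own.

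**Figure D3:**
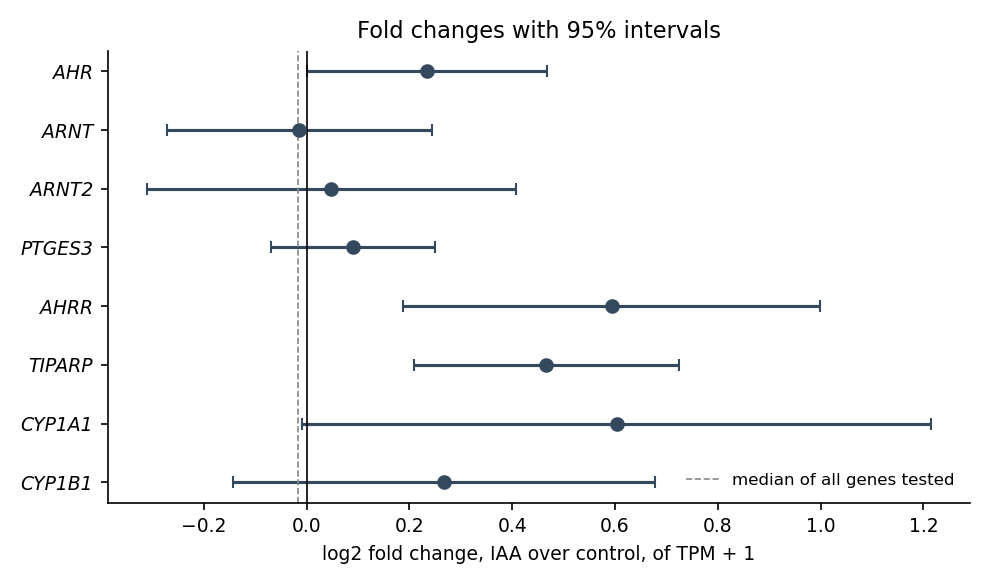
Log2 fold changes of IAA over control on the log2(TPM + 1) scale for the 8 tested members, with 95% intervals from limma; the dashed line is the median of all genes tested (-0.02). The intervals of AHRR and TIPARP lie wholly above 0, that of AHR begins at 0.00, and those of the other 5 cross 0.

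The CYP1 enzymes, the classical output of the receptor, were low in all 4 libraries. CYP1A1 (ENSG00000140465.13, chromosome 15, 74719542 to 74725610, reverse) had 3.70 and 4.27 TPM in IAA, against 3.08 and 1.63 TPM in control, on 87 to 188 reads a library. Both IAA values were above both controls, but control replicate 1 lay closer to IAA replicate 1 than to control replicate 2, and the counting intervals of the first 2 of these overlapped. The interval of its log2 fold change of 0.60 (SE 0.25) reached from -0.01 to 1.21 (limma adjusted p = 0.999). That fold change depended on which control was left out, at 0.29 without control replicate 2 and 0.92 without control replicate 1. Since the scale adds 1 TPM, it understates changes at such levels, with 0.295 at a pseudocount of 5 TPM, and voom gave 0.89 (SE 0.24, adjusted p = 0.998).

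CYP1B1 (ENSG00000138061.11, chromosome 2, 38066973 to 38109902, reverse), an enzyme of oestrogen and xenobiotic oxidation, had 3.32 and 3.83 TPM in IAA, against 2.91 and 2.68 TPM in control. The groups did not overlap, yet the counting intervals of IAA replicate 1 and control replicate 1 did. The log2 fold change was 0.27 (SE 0.17, limma adjusted p = 0.999), and 0.14 with a pseudocount of 5 TPM. CYP1B1 shares 678 exon bases (11.3%) with CYP1B1-AS1 on the opposite strand. Without stated use of strand, reads in that stretch cannot be assigned, and CYP1B1-AS1 itself stood at or below 0.252 TPM in every library.

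CYP1A2, a liver enzyme whose gene lies next to CYP1A1 (ENSG00000140505.6, chromosome 15, 74748844 to 74756202, forward), had 0 reads in both IAA libraries, against 0 reads in control replicate 1 and 1 read in control replicate 2. A count of 0 allows up to 3 reads, which is 0.0926 and 0.0858 TPM in IAA replicates 1 and 2 and 0.0938 TPM in control replicate 1. No difference was detectable at this depth, and no fold is given.

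By level per length the members fell into the same tiers in every library, with PTGES3 at the top, then TIPARP, ARNT and AHR, then AHRR and ARNT2, then CYP1A1 and CYP1B1, and CYP1A2 last. The border above CYP1A1 and CYP1B1 was not sharp. In control replicate 2 the counting intervals of AHRR (2.93 to 3.59 TPM) and CYP1B1 (2.36 to 3.03 TPM) overlapped. In IAA replicate 2 those of ARNT2 (4.57 to 5.46 TPM) and CYP1A1 (3.68 to 4.92 TPM) did. Within tiers the order of TIPARP and ARNT, and of AHRR and ARNT2, moved with the group. TIPARP was above ARNT in both IAA libraries, with a ratio of TPM of 1.34 and 1.33, and below it in both controls, at 0.947 and 0.948. The ratio differed less within a group than between groups. Its replicates lay closer together than the counting intervals are wide (TIPARP in IAA replicate 1, 40.9 to 44.3 TPM), so their closeness is no measure of precision. AHRR was likewise above ARNT2 in IAA, with ratios of 1.11 and 1.24, and below it in control, with 0.796 and 0.693. AHR stayed below ARNT throughout, at 0.809 and 0.839 of its level in IAA, against 0.668 and 0.709 in control. The ratio of AHRR to AHR was 0.241 and 0.267 in IAA, against 0.209 and 0.160 in control. The counting intervals of CYP1A1 and CYP1B1 overlapped in both IAA libraries and in control replicate 1, where their ratio lay between 1.06 and 1.12, while in control replicate 2 it was 0.609. These ratios were among 8 chosen after the values were seen and are given with no test.

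**Figure D4:**
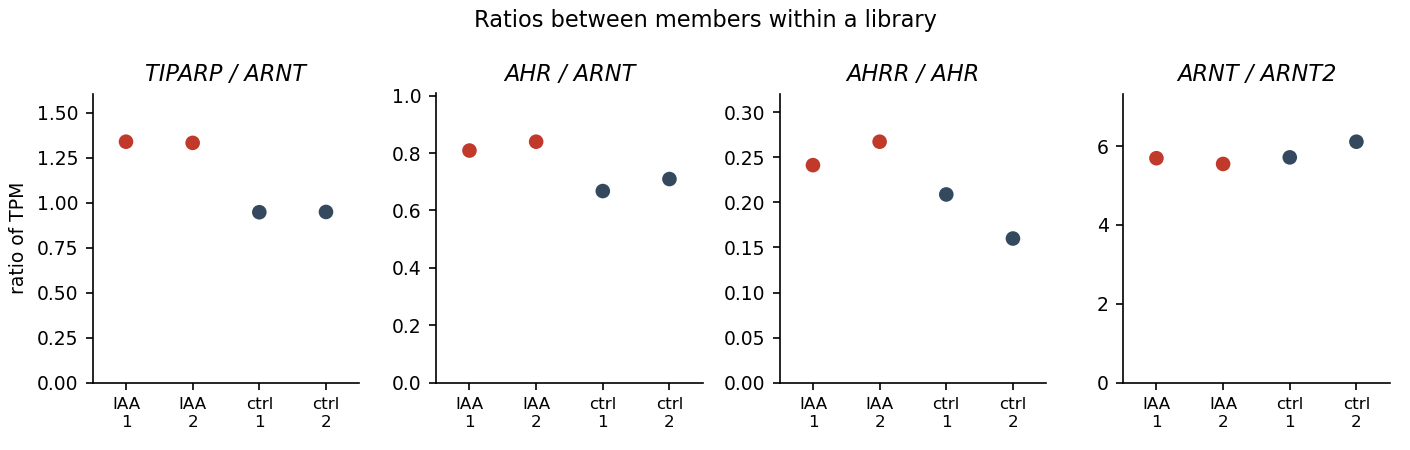
Ratio of TPM between pairs of members within each library, IAA replicates 1 and 2 in red and control replicates 1 and 2 in dark, each axis starting at 0. TIPARP over ARNT lies near 1.33 in both IAA libraries and near 0.947 in both controls, and AHR over ARNT and AHRR over AHR are also higher in both IAA libraries. ARNT over ARNT2 is at 5.69 and 5.55 in IAA, against 5.71 and 6.11 in control, where IAA replicate 1 and control replicate 1 hardly differ.

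The profile of AHR across the 4 libraries had many neighbours at the distance used here. Of the 12030 genes that averaged 5 TPM or more, 1680 lay within a root-mean-square difference of 0.1 from it on the centred log2(TPM + 1) scale, DTWD2, FRG1CP and IFIT1 being the nearest (0.0124, 0.0138 and 0.0156). The profiles of the feedback genes had few neighbours, 24 for TIPARP and 4 for AHRR. Since most genes changed little, a fixed distance holds fewer genes around a larger fold change. These counts, that of AHR included, are therefore not separate from the fold changes. Nearest to TIPARP were FLRT3, AL118558.1 and NTN5 (0.0245, 0.0525 and 0.0598), and nearest to AHRR were LINC02014, BST2 and AC079414.3 (0.0818, 0.0884 and 0.0949). FLRT3, which encodes a membrane protein of cell adhesion, had 6.39 and 5.46 TPM in IAA, against 4.27 and 3.99 TPM in control. With only 4 libraries, likeness is a description of these profiles.

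Other AHR target genes were mixed. Of 20 listed, 15 had a row and 11 were tested; 0 were called, 8 had positive fold changes, 7 exceeded both controls in each IAA library and 2 were under them, and the median log2 fold change was 0.15. Over all 17896 genes tested, 7959 were positive, 11.8% lay above both controls and 17.7% below. ALDH1A3, an aldehyde dehydrogenase, had 316 and 289 TPM in IAA, against 198 and 194 TPM in control (limma adjusted p = 0.381), and voom called it alone among all genes tested (adjusted p = 0.0120). NQO1, a quinone reductase that NRF2 also induces, had 441 and 447 TPM in IAA, against 363 and 371 TPM in control (limma adjusted p = 0.841). NFE2L2, the gene of NRF2, had 75.3 and 76.7 TPM in IAA, against 64.7 and 65.3 TPM in control (limma unadjusted p = 0.0212, adjusted p = 0.999). SLC7A5, an amino acid transporter, ran the other way with 212 and 254 TPM in IAA, against 326 and 283 TPM in control (limma adjusted p = 0.999). CYP2S1, another cytochrome P450, had 22.3 and 24.6 TPM in IAA, against 26.6 TPM in both controls. The remaining tested targets GSTA1, GSTA2, ABCG2, EREG, PTGS2 and LRAT had log2 fold changes between -0.01 and 0.47. ALDH3A1, NEDD9, SERPINB2 and IL6 were under the filter, and the other 5 listed genes were not analysed here.

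Apart from PTGES3, which lay higher in both IAA samples, genes of the cytosolic complex and the ubiquitin ligase mostly had small negative fold changes. Of 6 other genes of the cytosolic complex and the ubiquitin ligase that acts on AHR, 1 had a positive fold change, with a median of -0.06. In each IAA library 3 were under both controls and 0 over them, against 17.7% and 11.8% of all genes tested. Negative fold changes were found in 9937 of all 17896 genes tested. SRC, a kinase held in the complex, had 25.3 and 27.0 TPM in IAA, against 31.7 and 27.7 TPM in control. CUL4B, the scaffold of the ligase, had 57.0 and 47.5 TPM in IAA, against 54.6 and 47.8 TPM in control. HSP90AB1 and HSP90AA1, the chaperone genes, had log2 fold changes of -0.08 and -0.02. None of the 6 was called.

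Coactivators of AHR were spread around 0, with 3 of 8 positive and a median log2 fold change of -0.03. In each IAA library 2 were over and 2 under both controls, against 11.8% and 17.7% of all genes tested. NRIP1, a coregulator of nuclear receptors, had 10.6 and 8.29 TPM in IAA, against 8.12 and 7.29 TPM in control. NCOA1 had 10.0 and 9.50 TPM in IAA, against 9.23 and 9.10 TPM in control. EP300, a histone acetyltransferase, had 15.6 and 14.4 TPM in IAA, against 18.9 and 16.2 TPM in control, and SMARCA4, a chromatin remodeller, 23.0 and 23.1 TPM in IAA, against 28.5 and 24.5 TPM in control. All 8 had a limma adjusted p of 0.999.

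The relatives of AHR and ARNT in the bHLH-PAS family, which serve hypoxia and the circadian clock, showed no common direction. Of 8 tested, 4 were positive and 4 negative, and the median log2 fold change was 0.0021. In both IAA libraries 1 lay above and 1 below both controls, against 11.8% and 17.7% of all genes tested. HIF1A, which also pairs with ARNT, had 112 and 106 TPM in IAA, against 111 and 107 TPM in control. The clock gene NPAS2 had 7.06 and 6.42 TPM in IAA, against 6.37 and 5.58 TPM in control, and ARNTL2 had 21.6 and 18.4 TPM in IAA, against 19.2 and 18.3 TPM in control. ARNTL had 9.89 and 9.63 TPM in IAA, against 11.3 and 10.4 TPM in control, and NPAS1 had 3.55 and 5.14 TPM in IAA, against 6.04 and 4.59 TPM in control.

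Genes of tryptophan and indole metabolism, which make or use AHR ligands, were few in these cells. Of 10 with a row 4 were tested, 0 were called and 3 were negative, against 9937 negative of all 17896 genes tested. KYAT1, a kynurenine aminotransferase, had 6.81 and 8.59 TPM in IAA, against 10.4 and 10.5 TPM in control (limma adjusted p = 0.999). AFMID, the kynurenine formamidase, had 35.0 and 31.6 TPM in IAA, against 36.9 TPM in both controls, and KYAT3 had 53.9 and 46.5 TPM in IAA, against 47.8 and 47.4 TPM in control. TDO2, KYNU, KMO, IL4I1, TPH1 and DDC, which include entry enzymes of the kynurenine and serotonin routes, were under the filter.

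**Figure D5:**
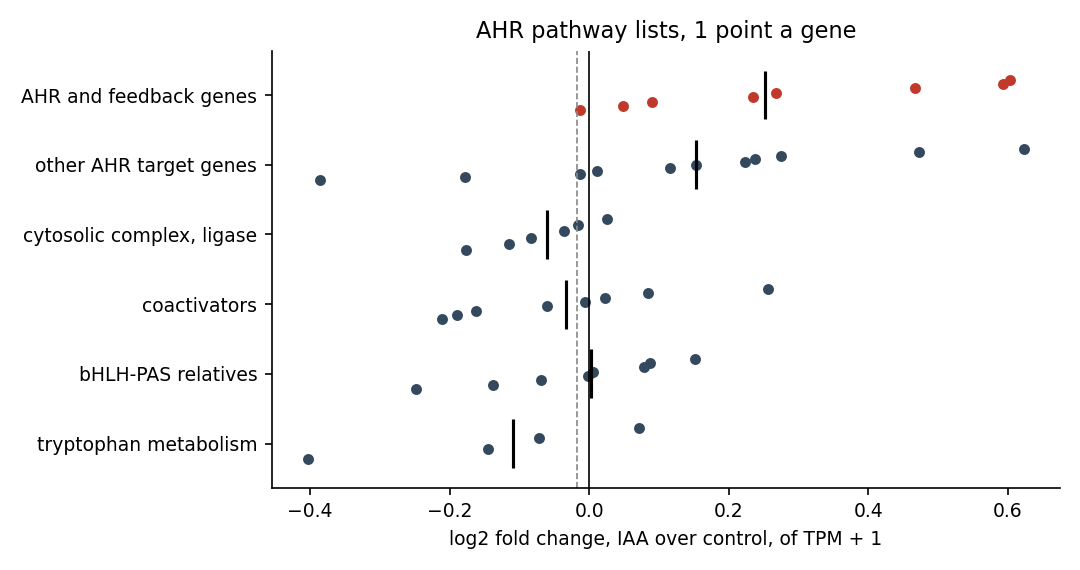
Log2 fold changes of IAA over control on the log2(TPM + 1) scale, 1 point a gene, for the members (red) and 5 related lists (dark), with list medians as black bars and the median of all genes tested as a dashed line. The medians are 0.25 for the members and 0.15 for other AHR targets, and lie between -0.11 and 0.0021 for the other lists. No point is a gene called by limma across all genes tested. Voom called ALDH1A3, and the fit to protein-coding genes alone called AHRR, TIPARP and CYP1A1.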

How the data were processed

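Poly-A RNA of 2 IAA and 2 control samples was sequenced as paired reads of 150 nt, per the labels' protocols. The authors deposited TPM values per gene, per the file headers. Of tools and builds, hg38, GRCh38.p12, DESeq2 1.20.0 and featureCounts 1.5.2 appear in the submitters' processing notes with no role; the sources used here give neither aligner nor strand use. All 34826 gene IDs and starts matched GENCODE 29, but 7172 ends differed, so coordinates are those of the release.

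Whole reads were recovered, since TPM times length fell on multiples of 1 step per library (100% of values, tolerance 1e-06); limma voom on them called 1 gene. Reads are not independent molecules, so Poisson intervals (95%) and the floor of 3 reads cover counting error only. Limma 3.58.1 in R 4.3.3 was fitted across all genes on log2(TPM + 1), and that scale understates changes of low genes. The design has 2 residual degrees of freedom, and an exact two-sided permutation test cannot go below 0.333, so none was used. Limma's P-values are two-sided. No pair of libraries agreed within sampling noise (chi-square per gene, at least 20 reads). Shared sequence was sought with BLAST 2.17.0 (95% identity over 150 bases). The code was tested on simulated data.

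The members, lists and tests were chosen with earlier results of these data known. All members were to be named, with the 2 smallest p in each direction per list and the 3 genes nearest to AHR, TIPARP and AHRR. Other genes of the lists could be named; ratios and overlapping genes were chosen after the values were seen. The values of 1 listed gene are not reported here.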

Additional observations from a re-analysis of the deposited data

How the results depend on the processing

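Limma called 0 genes higher and 0 lower in IAA under each pseudocount, filter and scaling tried, and with the replicate block. At an unadjusted limma p under 0.05, 275 genes were higher and 467 lower in the fit used for the results. Voom called 1 higher and 0 lower, protein-coding genes alone 12 and 25, and leaving out a library 0 to 534 higher and 0 to 424 lower, the calls arising only without an IAA replicate. The replicate numbers are not known to pair samples (correlation of deviations -0.069), and the replicate block left the members' median at 0.251 and called none of them. That median was 0.169 with a pseudocount of 5, 0.314 by voom, and 0.219 to 0.284 without a library. It was 0.162 at a minimum of 5 TPM, where CYP1A1 and CYP1B1 drop out and AHRR passes through its IAA libraries alone. Of 102 recomputed member values, 92 kept their direction and side of the threshold, 4 were newly called and 6 turned sign. The sign turned only for ARNT, at 0.0038 with median-of-ratios and 0.0025 with upper-quartile scaling and -0.11 to 0.082 without a library, and for ARNT2, at -0.0475 to 0.144 without a library; the cause was not tested. Depth limits CYP1A2, and CYP1A1 rests on 87 to 188 reads a library.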
